A study of Homo sapiens with 20 samples.

Results

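This is an account of 2023 RNA sites that carried the splicing factor SRSF1 in control cells and had no SRSF1 peak in cells overexpressing hnRNPA1. Deposited iCLIP peaks of 6 SRSF1 libraries were merged by chromosome and strand wherever they shared at least 1 nt, which gave 35117 merged sites. A site was taken as control-only when it had a peak in at least 2 of the 3 control libraries and in none of the 3 overexpression libraries. The 2023 control-only sites were 5.76% of all merged sites. By the mirrored rule 2827 sites (8.05%) were found with overexpression only, and 3301 (9.4%) were kept, with a peak in at least 2 libraries of each condition. The sites were thus chosen by their SRSF1 peaks, and every SRSF1 value given here is a description that carries no test.

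The cells were TREX FLP-In 293T, an epithelial line derived from human embryonic kidney, either as the control line or with an inducible T7-tagged hnRNPA1. Both received tetracycline for 24 h before harvest. Selection lasted 3 days and used blasticidin with zeocin for the control line and hygromycin for the inducible line, so the drug and the line differ together with hnRNPA1 and cannot be told apart from it. iCLIP, which crosslinks a protein to RNA and reads out the bound fragments, was done on nuclear extracts with 3 libraries per condition for SRSF1 and U2AF2 and 2 per condition for hnRNPA1. Polyadenylated RNA of whole cells was sequenced from 4 samples, 2 per condition. The labels give no separate cultures behind the replicates, so p-values measure the spread between these libraries, which may be technical. No expression value of HNRNPA1 was used here, so the overexpression itself was not checked.

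SRSF1 belongs to the SR proteins, named for their serine and arginine repeats. It binds enhancer elements in exons and helps to recruit U1 snRNP to 5' splice sites and U2AF to 3' splice sites. U2AF2 is the large subunit of U2AF and reads the polypyrimidine tract before the 3' splice site. hnRNPA1 is an abundant nuclear protein that often acts against SR proteins in the choice of splice sites. The comparison addresses which SRSF1 contacts are no longer called when hnRNPA1 is raised, and what the other 2 proteins do at the same places.

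Depth bears on all that follows. Reads in peaks ran from 125082 to 173766 in SRSF1 control libraries and from 175293 to 329448 with overexpression. By size factor, however, SRSF1 overexpression replicate 1 (0.912) lay below control replicates 1 (1.07) and 3 (0.925). For U2AF2 the range was 702563 to 1158060 in control and 2317615 to 3657197 with overexpression, and for hnRNPA1 it was 2508821 to 2973275 in control and 549365 to 575471 with overexpression. A peak needed at least 6 reads in all but 1 library, U2AF2 overexpression replicate 3, which lists peaks from 3 reads and was held to 6 here. After scaling, 6 reads equal 17.0 normalised reads in the shallowest U2AF2 library and 2.14 in the deepest. Among markers checked for epithelial cells and the HEK293 line, VIM, CDH2 and EPCAM had peaks in all 6 U2AF2 libraries, CDH1 in 3 and KRT8 in 1. KRT18, KRT19, NEFM and NEFL had a peak in no library. Of markers of blood and connective tissue cells, PTPRC, CD74, HBG1, COL1A1, COL1A2 and DCN had no peak, and LYZ and HBG2 had peaks in 6 and 5 U2AF2 libraries.

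Most control-only sites were weak. The highest control library held 10 reads or fewer at 1153 sites (57.0%), 20 or more at 205 (10.1%) and 50 or more at 22. A peak was present in all 3 control libraries at 404 sites and in exactly 2 at 1619, of which 928 lacked it in control replicate 2, the shallowest SRSF1 library. Together the sites held 18860, 13753 and 15884 reads in control replicates 1, 2 and 3, which was 10.85%, 10.995% and 10.51% of all reads in peaks. The number of sites depends on the libraries: without control replicate 1, 2 or 3, and with a peak required in both of those left, 657, 1337 and 847 sites met the rule. With a deposited p-value under 0.001 for every peak, 694 sites met it.

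The limit of the rule is visible at its edge. PARK7, KAZN and AGMAT each held a site just inside it, with 6 reads in 2 control libraries. Just outside lay 1173 sites with a peak in at least 2 control libraries and in 1 overexpression library, and 582 of these had 6 to 8 reads there. A PTGES3 site of 50, 57 and 41 control reads was left out for a single overexpression peak of 6 reads. In the same way an MCM4 site of 36, 34 and 22 reads was left out for 6 reads. Absence here means that no peak was called, not that no SRSF1 read was present.

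Some control-only sites sat close to SRSF1 peaks of the overexpression libraries. The nearest such peak on the same strand was within 10 nt at 21 sites, within 50 nt at 113, within 100 nt at 220 (10.9%) and within 1000 nt at 909 (44.9%). The median distance was 1303 nt, and 534 sites (26.4%) had none within 10000 nt. Requiring a gap of over 50 nt, an alternative chosen after seeing the data, left 1910 sites. The sites were also narrow, with a median width of 53 nt against 90 nt for overexpression-only sites, 95 nt for kept sites and 59 nt for all merged sites. SRSF1 peaks themselves were wider with overexpression (library medians of 60 to 61 nt) than in control cells (47 to 51 nt).

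**Figure D1:**
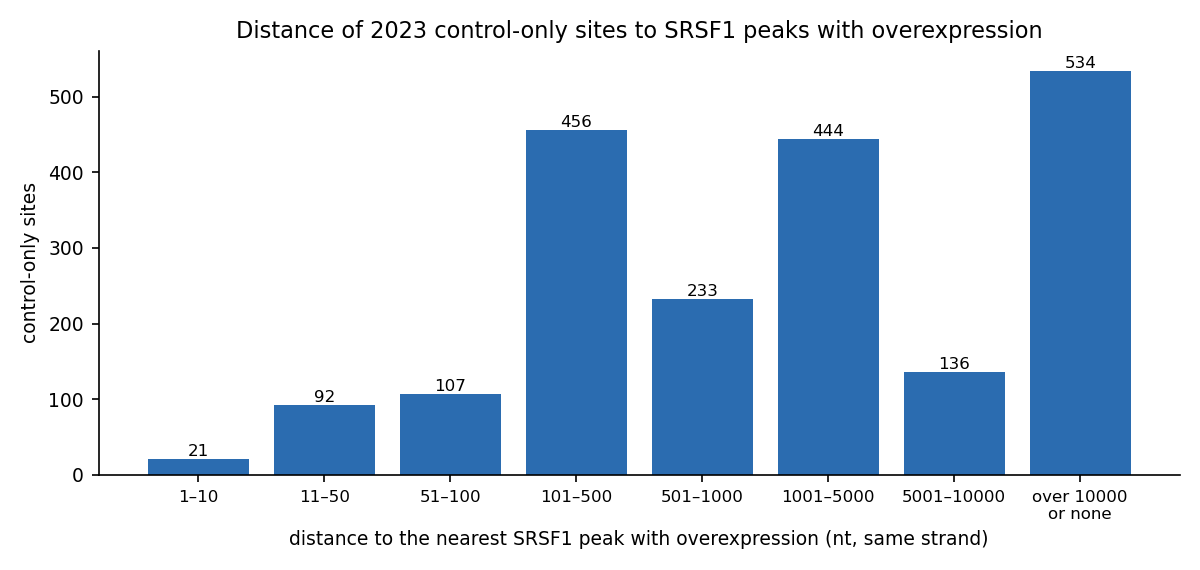
Bars count the 2023 control-only sites by their distance in nt to the nearest SRSF1 peak of any overexpression library on the same strand. The tallest bar holds the 534 sites with no such peak within 10000 nt, and 113 sites lie within 50 nt of one.

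The sites fell in 1501 of the 9230 genes with any SRSF1 site, and 1239 of these genes (82.5%) had an SRSF1 peak elsewhere with overexpression. A kept site lay in 541 of the genes and an overexpression-only site in 490. The remaining 262 genes had no SRSF1 peak in any overexpression library. One site was found in 1144 genes and 4 or more in 67. Protein-coding genes held 89.3% of the control-only sites and 87.7% of all merged sites. Placement in exons or introns was not analysed here.

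U1 snRNA genes are shown by sequence because their copies are alike enough to share reads. U1 snRNA is the RNA of the particle that pairs with the 5' splice site. Of 17 merged SRSF1 sites in 14 genes and pseudogenes named as U1, 9 were control-only. Each was in a different gene and had a peak in all 3 control libraries. U1 genes were searched by name alone, so copies listed without a symbol would be missed. This group was chosen after its values were seen. In the reference transcripts (GENCODE 29), RNU1-1, RNU1-3, RNU1-4, RNVU1-18, RNU1-27P and RNU1-28P are the same 164 bases. RNVU1-7 differs from RNU1-1 at 1 base and RNU1-83P at 13, while RNVU1-2 has 162 bases with 155 aligned to identical ones. The run ACTTACCTG, the part of U1 that pairs with 5' splice sites, is in capitals in RNU1-1, and capitals in the other lines mark the bases that differ from RNU1-1.
RNU1-1: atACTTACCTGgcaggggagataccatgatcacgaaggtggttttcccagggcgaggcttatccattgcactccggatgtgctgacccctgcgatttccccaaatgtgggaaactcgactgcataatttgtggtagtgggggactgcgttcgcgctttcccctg
RNVU1-7: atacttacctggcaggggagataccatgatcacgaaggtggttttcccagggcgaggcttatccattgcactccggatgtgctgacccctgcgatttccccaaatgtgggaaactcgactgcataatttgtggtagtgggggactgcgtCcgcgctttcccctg
RNU1-83P: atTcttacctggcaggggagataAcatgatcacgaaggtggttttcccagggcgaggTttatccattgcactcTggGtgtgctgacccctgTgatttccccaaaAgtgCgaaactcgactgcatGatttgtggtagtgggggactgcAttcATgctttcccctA

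Reads from copies this alike cannot be assigned to one gene with certainty, so the 9 sites are not 9 independent observations. RNU1-1 (hg19 chromosome 1, 16840690 to 16840768, minus strand) had 15, 16 and 13 SRSF1 reads in control replicates 1 to 3 and no peak with overexpression. RNU1-3 (chromosome 1, 16993377 to 16993425) had 21, 24 and 21, and RNU1-28P (chromosome 14, 35025529 to 35025571) had 21, 28 and 17. Over the 9 sites the control medians were 12, 18 and 15 reads.

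SRSF1 was not absent from U1 genes with overexpression. RNU1-2 held a kept site of 14, 29 and 22 control reads and 11 and 7 reads in overexpression replicates 2 and 3. A neighbouring RNU1-2 site had 32, 80 and 35 overexpression reads against 10 in 1 control library. RNVU1-17 carried an overexpression-only site of 12, 9 and 14 reads, and a second RNU1-1 peak of 11 reads lay 35 nt from the control-only site. Over all 17 sites SRSF1 had 167, 246 and 209 control reads against 55, 106 and 78 with overexpression. That fall lies in the control-only sites, which have no overexpression peak by the rule. The other U1 sites had 32, 67 and 75 control reads against 55, 106 and 78. Normalised these were 29.9, 111 and 81.1 against 60.3, 67.9 and 58.7, and the groups overlap on both scales.

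The other proteins were counted at the same 9 U1 sites. hnRNPA1 had 34 and 38 reads at RNU1-1 in the control libraries, and over the 9 sites its control medians were 34 and 30. Neither overexpression library had an hnRNPA1 peak at any of them, and a peak was called in both control libraries at 8. These overexpression libraries were the shallower ones, and the part of depth in the missing peaks was not tested. U2AF2 peaks were present in all 6 libraries at 8 of the 9 sites.

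Scaled U2AF2 reads were lower at those 8 U1 sites. RNU1-1 held 107, 73 and 101 U2AF2 reads in control cells and 50, 57 and 42 with overexpression, although the overexpression libraries were deeper. The raw counts did not overlap between the conditions here or at RNU1-3 and RNVU1-18, but they overlapped or touched at the other sites: RNU1-4 had 49, 44 and 46 against 21, 47 and 68. Scaled to library size the RNU1-1 reads were 219.8 ± 72.6 and 21.3 ± 6.61 normalised reads (SD, n = 3 each), a log2 change of -3.30 ± 0.30 (SE). RNU1-4 moved least of the 8, from 109.7 ± 31.3 to 18.7 ± 8.70 (log2 change -2.57 ± 0.40). The 8 changes had a median of -3.26, and of -2.50 with total reads in peaks as the scale. With the same normalised minimum in every library none of the 8 could be tested, since no site had a peak above it in all 6 libraries. The 8 sites thus passed the filter through the condition in which they are high, and no test is given. The U1 sites that were not control-only had lower U2AF2 sums too, 453, 461 and 374 normalised reads in control and 78.6, 99.3 and 103 with overexpression, and hnRNPA1 sums of 41.4 and 35.7 against 0.

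**Figure D2:**
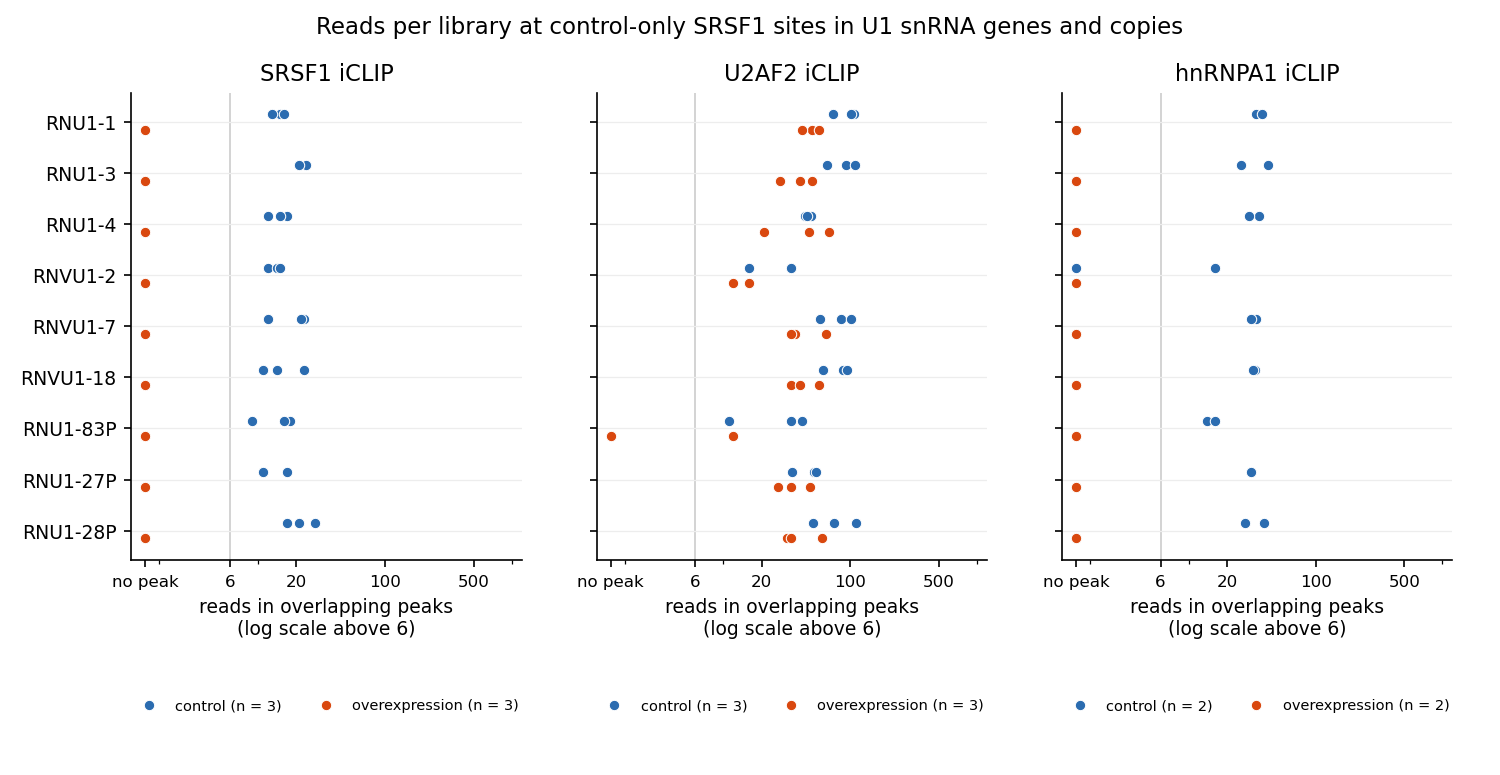
Each row is a control-only SRSF1 site in a U1 gene or copy, and each point the reads of the peaks overlapping it in 1 library, on a log scale above 6 reads, with sites lacking a peak at the left edge. SRSF1 and hnRNPA1 points of the overexpression libraries all sit at the left edge, and U2AF2 points of both conditions mostly lie above 10 reads.

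The sites with the most SRSF1 reads lay in a mixed set of genes. The strongest was in XIST, the long non-coding RNA of the inactive X chromosome (hg19 chromosome X, 73046878 to 73046954, minus strand), with 317, 377 and 197 reads in the 3 control libraries. An overexpression SRSF1 peak lay 28 nt away, and XIST as a whole had 90 kept sites. DDX39B, an RNA helicase of the spliceosome and of mRNA export, followed with 110, 106 and 80 reads (chromosome 6, 31501020 to 31501064), with an overexpression peak 33 nt away. This position is also listed under the readthrough gene ATP6V1G2-DDX39B.

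Next came ZNF711, a zinc finger gene, with 97, 100 and 55 reads (chromosome X, 84509152 to 84509209). MALAT1, a long non-coding RNA of nuclear speckles, had 67, 56 and 65 reads at a site of 26 nt, 15 nt from an overexpression peak. MRPS25, a subunit of the mitochondrial ribosome, had 64, 37 and 35 reads (chromosome 3, 15084763 to 15084802), with the nearest overexpression peak 3592 nt away.

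The strong sites of MALAT1, XIST and DDX39B thus bordered on SRSF1 peaks of the overexpression libraries, while that of MRPS25 stood apart. RACK1, a scaffold protein of the ribosome, had 39, 31 and 39 reads. NEAT1, the RNA that builds paraspeckles, had 46, 13 and 38. A position shared by SUMO3 and UBE2G2 had 56, 16 and 36.

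CEBPE, a myeloid transcription factor gene, had a site of 44, 13 and 35 SRSF1 reads (chromosome 14, 23588502 to 23588569), 38513 nt from the nearest overexpression peak on its strand. The gene held 4 control-only sites, and none of them had an hnRNPA1 or U2AF2 peak with overexpression. At the site named, hnRNPA1 had 142 and 148 control reads. SRRM2, a large SR-related protein, had 39, 26 and 22 SRSF1 reads, and MKNK1, a kinase that acts on the translation factor eIF4E, had 37, 37 and 21.

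The other proteins differed from site to site. At the DDX39B site U2AF2 had 54, 47 and 63 reads in control and 49, 9 and 19 with overexpression. Normalised these were 126 ± 24.4 and 10.5 ± 8.55 (SD, n = 3 each), a log2 change of -3.70 ± 0.47. The overexpression mean lay below the 17.0 normalised reads from which the shallowest control library lists a peak, so no test is given. hnRNPA1 had 83 and 77 control reads there and no overexpression peak. The MALAT1 site had 138, 177 and 185 U2AF2 reads in control and 46 and 24 in 2 overexpression libraries, and no hnRNPA1 peak.

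At the NEAT1 site U2AF2 had 125, 79 and 134 reads in control and no peak in the deeper overexpression libraries, while hnRNPA1 had 186 reads in 1 control library and 61 and 308 with overexpression. RACK1 had 99 and 50 hnRNPA1 reads in control and 24 and 23 with overexpression, a log2 change of 0.84 ± 0.35 after scaling that did not pass (limma adjusted p = 0.0887). The XIST site had no U2AF2 peak in any library and 58 hnRNPA1 reads in 1 overexpression library.

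**Figure D3:**
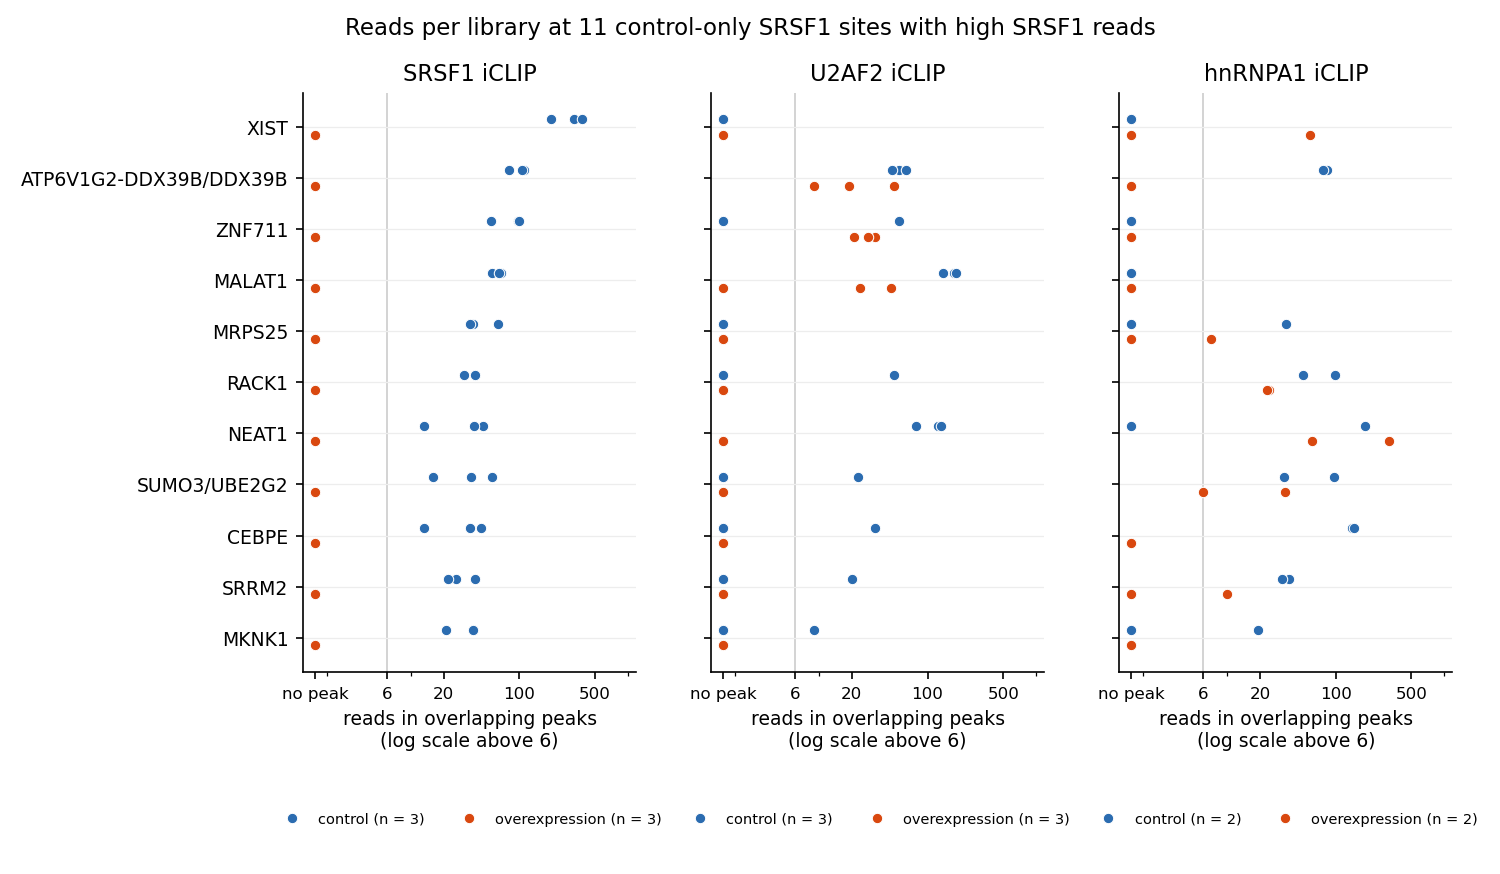
Rows are 11 of the 12 control-only sites with the highest SRSF1 reads among those in all 3 control libraries, 1 per gene, and points are the reads of overlapping peaks in each library on a log scale above 6 reads. No overexpression library has an SRSF1 peak at these sites by the rule, whereas U2AF2 and hnRNPA1 peaks are spread over both conditions.

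Among sites found in exactly 2 control libraries the strongest again included XIST (124 and 366 reads), CEBPE (54 and 45), MALAT1 (46 and 49), NEAT1 (34 and 33) and ZNF711 (41 and 27). U2AF1, the small subunit of U2AF, had 30 and 23 reads at chromosome 21, 44522938 to 44522997. It had 5 control-only sites in all. The strongest U2AF1 site (chromosome 21, 44519800 to 44519842, minus strand) had 29, 41 and 32 SRSF1 reads, 22, 23 and 28 U2AF2 reads and 45 and 63 hnRNPA1 reads in control cells, and no peak of any of the 3 proteins with overexpression.

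At 28 sites in 23 genes, U2AF2 and hnRNPA1 peaks were likewise present in every control library and in no overexpression library. That is 1.38% of control-only sites and 0.803% of all merged sites. The group held sites in several splicing genes: SRSF5 (14, 10 and 16 SRSF1 reads), HNRNPR (14, 11 and 13), SF1 (10 and 13, in 2 libraries) and ZRANB2, a zinc finger splicing factor (19, 17 and 23 at the stronger of 2 sites). The overexpression libraries were the deeper ones for U2AF2 and the shallower ones for hnRNPA1, and the part of depth in the missing hnRNPA1 peaks was not tested.

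Some genes held many control-only sites, often beside sites of the other classes. SLIT2, a guidance cue of axons, had 13 control-only sites beside 5 kept and 5 overexpression-only ones. EFNA5, an ephrin ligand, had 10 beside 3 kept and 11 overexpression-only ones. RFC3, a clamp loader subunit of DNA replication, ZNF711 and ZRANB2 had 8 each, in ZNF711 beside 9 kept and 5 overexpression-only sites. ENSG00000250689, MALAT1, SFPQ and ZNF207 followed with 7, in MALAT1 beside 35 kept and 11 overexpression-only sites. In RFC3 and ZRANB2 the control-only sites stood beside no overexpression-only site, and beside 0 and 1 kept sites.

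SRSF1 reads over whole genes, control-only sites included, went in both directions. The genes given are examples picked with their SRSF1 values known, and carry no test. RFC3 had 205, 56 and 133 SRSF1 reads in all its peaks in control replicates and 24, 91 and 73 with overexpression. These unscaled groups overlap, whereas after division by the size factors they were 191.9, 93.2 and 143.8 against 26.3, 58.3 and 54.9 and did not. PTGES3, a co-chaperone of HSP90, had 171, 235 and 130 in control and 30, 6 and 51 with overexpression, and the groups did not overlap. MALAT1 rose instead, from 4622, 2661 and 3890 to 6975, 11006 and 8998. NOP56 also rose, from 343, 223 and 325 to 685, 1041 and 972. The groups of both did not overlap with or without scaling. SLIT2 had 537, 139 and 393 against 386, 559 and 355, and these groups overlap with and without scaling.

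U2AF2 peaks were about as frequent at the control-only sites in both conditions when every peak of 6 or more reads counted. They overlapped 24.0%, 23.8% and 31.5% of the sites in the control libraries and 24.9%, 25.1% and 26.7% with overexpression. The means were 26.4% ± 4.41 and 25.6% ± 1.03 (SD, n = 3 each), a difference within the spread between libraries (exact two-sided permutation p = 1). Over all merged sites the share went from 27.2%, 28.3% and 34.2% to 32.1%, 33.6% and 33.2%. No U2AF2 peak in any library was found at 903 control-only sites, 44.6%, beside 44.1% of all merged sites.

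The depth of the U2AF2 libraries changes that picture. With the same normalised minimum in every library, an alternative chosen after seeing the data, the share at control-only sites was 24.0%, 22.1% and 24.96% in control and 7.02%, 8.35% and 5.14% with overexpression, and the groups did not overlap. The difference of means was -16.9 percentage points (exact two-sided permutation p = 0.1, the smallest that 3 against 3 allows). All merged sites also fell under this minimum, from 27.2%, 26.2% and 27.4% to 17.4%, 18.9% and 15.0%. With the minimum instead scaled to the total reads in peaks the difference at control-only sites was -12.0 points (exact permutation p = 0.1). At the 404 sites with an SRSF1 peak in all 3 control libraries, and with peaks of 6 or more reads, the difference was -6.68 points (exact permutation p = 0.1).

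Compared with overexpression-only sites, control-only sites had U2AF2 peaks less often in every library. Overexpression-only sites were overlapped at 41.2%, 42.3% and 50.4% in control and 48.3%, 51.3% and 49.5% with overexpression. The share at control-only sites minus that at overexpression-only sites was therefore -18.2 ± 0.904 percentage points in control cells and -24.1 ± 1.81 points with overexpression (SD, n = 3 each). The gap changed by -5.92 points (exact two-sided permutation p = 0.1, the smallest the design allows), and the groups did not overlap. Restricted to sites of 40 to 80 nt, since wider sites meet more peaks, the gap changed by -8.40 points (exact permutation p = 0.1).

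hnRNPA1 peaks overlapped fewer control-only sites with overexpression. The shares were 47.6% and 46.5% in control and 16.1% and 18.9% with overexpression, a difference of -29.6 points (n = 2 each, exact two-sided permutation p = 0.33, the smallest 2 against 2 allows). The libraries also lost most of their depth. All merged sites went from 47.5% and 45.5% to 14.3% and 17.1%. With the same normalised minimum in every library the control-only shares were 17.4% and 20.02% in control and 16.1% and 16.5% with overexpression, a difference of -2.45 points.

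Control-only and overexpression-only sites differed in this respect. hnRNPA1 peaks were at 62.2% and 60.3% of overexpression-only sites in control cells and at 15.5% and 19.2% with overexpression. The control-only minus the overexpression-only share was thus -14.2 ± 0.557 points in control and 0.124 ± 0.634 points with overexpression (SD, n = 2 each, exact permutation p = 0.33). With the same normalised minimum these were -10.1 and 0.168 points.

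**Figure D4:**
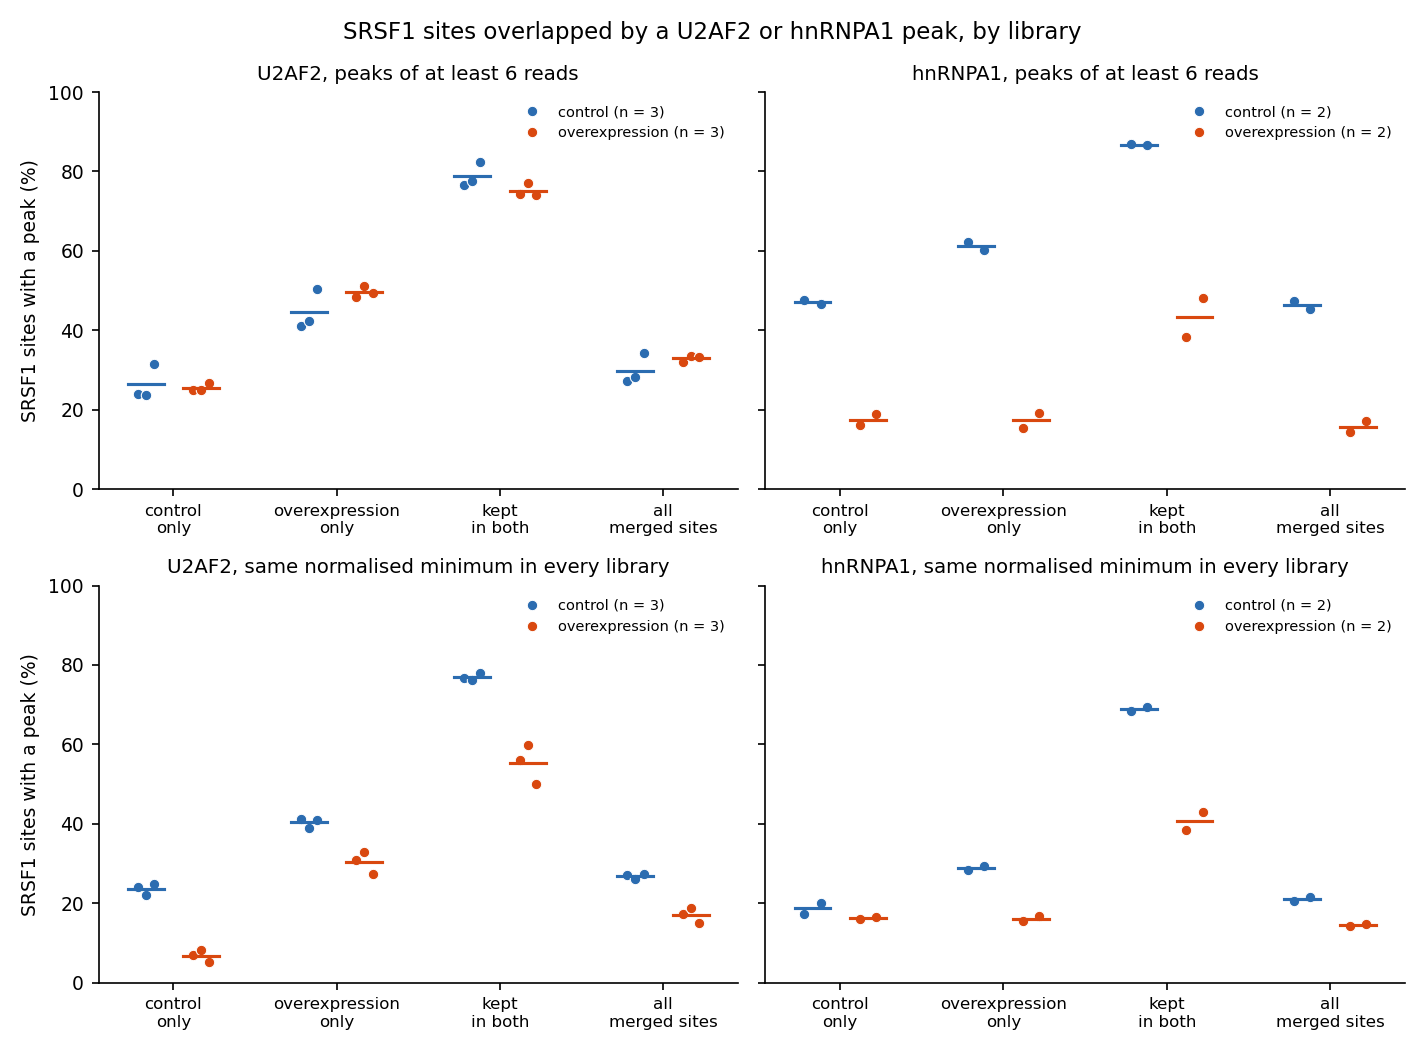
Points are the percentage of SRSF1 sites of each class that a U2AF2 or hnRNPA1 peak overlapped in 1 library, and bars are group means, with all peaks of at least 6 reads above and with the same normalised minimum in every library below. At control-only sites the U2AF2 points of both conditions lie between 23.8% and 31.5% above, and separate into 22.1% to 24.96% and 5.14% to 8.35% below.

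Peaks of U2AF2 present in every control and no overexpression library were found at 109 control-only sites (5.39%; 3.97% of all merged sites), and the opposite pattern at 119 (5.88%; 6.27% of all). For hnRNPA1, 438 control-only sites (21.7%; 22% of all) had a peak in both control and no overexpression library. The opposite pattern occurred at 13 (0.643%; 0.339% of all). No test was run on these shares.

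Reads were then compared, where no library of a protein lacked a peak, by limma on log2 normalised reads with a pseudocount of 1. Of the 2023 control-only sites only 88 passed this filter for U2AF2 (4.35%; 11.2% of all merged sites). Among the 88, 50 were lower and 8 higher with overexpression, and the median log2 change was -1.64. Over the 3918 merged sites tested 69.7% were called, 26.3% lower and 43.3% higher, with a median of 0.46. With total reads in peaks as the scale 46 of the 88 were lower and 23 higher, and the median of all sites was 1.23. Those that pass are a selected minority. Under the same normalised minimum 23 control-only sites passed, 1 lower and 3 higher, with a median of 0.04 beside 0.61 over all sites, so the majority of lower calls does not hold there. Without the filter 217 of 1120 were lower (19.4%; 15.5% of all sites) and 123 higher (10.98%; 18.7% of all sites).

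The sites with the greatest decrease of U2AF2 were these. ENSG00000188206, an ID without a symbol in the name table, had a site at chromosome 1, 245007214 to 245007284. It held 67, 66 and 127 U2AF2 reads in control and 15, 17 and 9 with overexpression (log2 change -4.86 ± 0.31). GTF2H2C, a copy of a TFIIH subunit gene, had 71, 104 and 172 against 22, 30 and 23 reads (log2 change -4.46 ± 0.26). Near-identical copies may share its reads. At both, even the raw reads of the deeper overexpression libraries lay below every control library.

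Next in order was a NEAT1 site (chromosome 11, 65204742 to 65204784), which had 107, 116 and 248 U2AF2 reads in control and 35, 63 and 26 with overexpression. Its log2 change was -4.28 ± 0.38. Sites in HMGN2, a nucleosome-binding protein, and RFC3 fell by 4.28 and 3.95 on the log2 scale. At these sites, ENSG00000188206 and GTF2H2C included, an overexpression library lay below 17.0 normalised reads, where the shallowest control library begins to list peaks. They passed the filter through the condition in which they are high, and no test is given.

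Higher U2AF2 reads were found at few of the sites. GNB4, a G protein beta subunit, had 6, 7 and 6 reads in control and 106, 102 and 135 with overexpression (log2 change 1.64 ± 0.27). PDE6A, a phosphodiesterase subunit of photoreceptors, had 22, 27 and 24 against 314, 264 and 347 (1.18 ± 0.23, limma adjusted p = 0.00187). The control reads of GNB4 lie at the minimum of 6, where the deposited peaks cannot show a lower value, so no test is given for it.

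For hnRNPA1, 201 control-only sites had a peak in every library (9.94%; 8.5% of all merged sites), and 86 of them were higher and 0 lower with overexpression. Of the 2984 merged sites tested 44.6% were called, 38.6% higher and 5.97% lower, so the 42.8% of tested control-only sites called higher lies near that of all sites. The medians were 0.81 and 0.74. At an unadjusted p under 0.05, 112 of the 201 passed. With total reads in peaks as the scale 67 were higher and 1 lower, and after quantile normalization 28 and 2. Over all 2984 sites quantile normalization gave 316 higher and 411 lower, so the direction over all sites turns there. The filter decides the direction: without it, when a library lacking a peak counts as 0, 54 of 1163 were higher and 431 lower, and over all sites 690 were higher and 7693 lower. The shallow overexpression libraries list a peak only from 14.2 normalised reads, so the 201 sites are those that reached this level there. With that minimum applied to all libraries, 52 of 126 were higher and 0 lower.

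NEAT1 and SLIT2 led this group. At the NEAT1 site named above hnRNPA1 had 42 and 42 reads in control and 57 and 62 with overexpression, although these libraries were shallower. The normalised values were 17.7 ± 1.80 and 136.4 ± 2.50 (SD, n = 2 each; log2 change 2.88 ± 0.26, limma adjusted p = 0.00448). U2AF2 fell at that site and hnRNPA1 rose.

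Over the whole SLIT2 gene hnRNPA1 reads rose from 9681 ± 184 to 38537 ± 832 normalised reads (SD, n = 2 each; log2 change 1.99 ± 0.06, limma adjusted p = 4.69e-05). Of its 13 control-only sites 8 could be tested for hnRNPA1, and all 8 were higher, by 1.27 to 2.60 on the log2 scale. The rise was thus not confined to these sites. The strongest in reads (chromosome 4, 20382177 to 20382313) had 125 and 123 hnRNPA1 reads in control and 126 and 139 with overexpression, or 52.2 ± 4.73 and 303.7 ± 8.60 normalised (log2 change 2.52 ± 0.23, limma adjusted p = 0.00448). SRSF1 had 8 and 11 reads there in 2 control libraries. After quantile normalization 3 of the 8 no longer passed. Under the same normalised minimum 7 of the 8 could be tested and passed.

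The gene for U2AF2 itself carried a control-only SRSF1 site of 13 and 11 reads (chromosome 19, 56167880 to 56167940) with 25 and 37 hnRNPA1 reads in control and 28 and 36 in the shallower overexpression libraries. U2AF2 peaks of 25, 24 and 39 reads were there in control and none with overexpression. Sites in EFCAB5 (22 and 19 against 16 and 32 hnRNPA1 reads) and ENSG00000247185 (28 and 9 against 17 and 22) were also among the leading ones. At these 3 sites a control library lay below the 14.2 normalised reads from which the overexpression libraries list a peak, so they passed the filter through the condition in which they are high, and no test is given.

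Whole genes gave more values than single sites. Of the 1501 genes with a control-only site, 1176 had U2AF2 peaks in every library, of which 575 were lower (48.9%) and 194 higher (16.5%) with overexpression. Over all 6795 genes tested 61.8% were called, 31.6% lower and 30.2% higher. The median log2 change was -0.77 for the genes with a control-only site and 0.02 for all. With total reads in peaks as the scale, which moves the median of all genes to 0.80, 406 were lower and 401 higher at a median of 0.00, so the excess of lower calls is relative to the other genes. Under the same normalised minimum 359 of 635 were lower (56.5%; 25.1% of all genes) and 81 higher (12.8%; 31.8% of all genes).

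For hnRNPA1, 1175 of the genes were tested, and 244 were called (20.8%, beside 17.8% of all genes tested). Of these, 144 were higher (12.3%; 9.5% of all genes) and 100 lower (8.51%; 8.33% of all). The medians were 0.08 and 0.01. Which direction holds the majority depends on the scale: 108 were higher and 140 lower with total reads in peaks, and 483 and 18 under the same normalised minimum, where over all genes 1326 were higher and 132 lower.

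**Figure D5:**
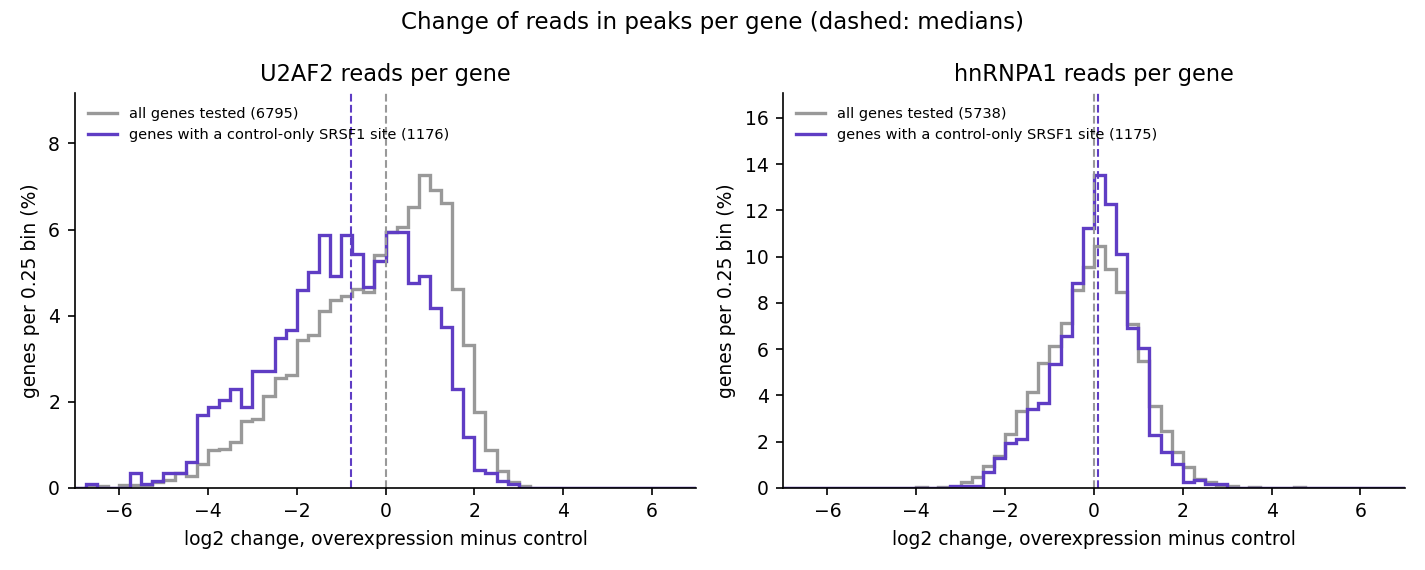
Histograms of the log2 change in reads per gene, overexpression minus control, for all genes tested and for genes with a control-only SRSF1 site, with dashed lines at the medians. For U2AF2 the medians are 0.02 and -0.77, and for hnRNPA1 they nearly coincide at 0.01 and 0.08.

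Many genes of RNA-binding proteins carried control-only sites. Of 22 SR protein and SR kinase genes with an SRSF1 site, 14 (63.6%) had a control-only one, against 16.3% of all genes with a site. A gene with many merged sites, such as SRRM2 with 33 or SON with 32, can hold a control-only one more easily. The shares of this and the following lists were not adjusted for that, and no enrichment was tested. These 14 held 33 sites, among them SRSF7 (26 and 24 reads in 2 libraries) and SRSF1 (18 and 16). U2AF2 reads per gene fell in 11 of 13 tested and rose in 0, with a median log2 change of -3.52. With total reads as the scale they fell in 9. Of all tested genes with a control-only site 48.9% were lower and 16.5% higher for U2AF2, the base for the following lists too. For hnRNPA1 that base was 8.51% lower and 12.3% higher. SRSF7, an SR protein with a zinc knuckle, went from 960.8 ± 131 to 84.6 ± 10.1 normalised U2AF2 reads (SD, n = 3; limma adjusted p = 5.43e-06). SRSF1 itself went from 3476 ± 300.2 to 241.3 ± 127 (limma adjusted p = 0.000118).

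hnRNP genes showed a like count. Of 28 with an SRSF1 site 19 had a control-only one (45 sites). U2AF2 fell in 17 of 19 tested, against 48.9% of all tested genes with a control-only site, with a median of -2.95. With total reads as the scale it fell in 15. HNRNPR had sites of 19, 28 and 22 reads, and HNRNPL, a regulator of CA-rich elements, of 20, 26 and 12. HNRNPA1 had 1 control-only site, with 14 and 36 reads at chromosome 12, 54674864 to 54674889, where neither of the other proteins had a peak. U2AF2 reads over HNRNPA1 fell from 1210 ± 65.6 to 54.8 ± 20.2 (limma adjusted p = 1.62e-05). hnRNPA1 reads per gene rose in 2 of the 19 and fell in 0, but the counts depend on the scale: 2 higher and 3 lower with total reads in peaks or quantile normalization, and 11 and 0 under the same normalised minimum.

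Of the 3' splice site and U2 factors, 7 of 17 had control-only sites: DDX46, RBM39, SF1, SF3A3, SF3B3, U2AF1 and U2AF2. U2AF2 fell in 5 of 6 tested, against 48.9% of all tested genes with a control-only site. SF1, which reads the branch point, had 25 and 13 SRSF1 reads in 2 control libraries. Its U2AF2 reads went from 2394 ± 251.3 to 98.0 ± 13.5 (limma adjusted p = 2.84e-06) and its hnRNPA1 reads from 431.8 ± 12.6 to 204.8 ± 31.1 (n = 2 each, limma adjusted p = 0.0243). The hnRNPA1 call of SF1 was lost under the same normalised minimum (limma adjusted p = 0.179) and without control replicate 1 (0.0599).

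Cytoplasmic ribosomal protein genes had control-only sites in 37 of 78, with 52 sites, 17 of them in all 3 control libraries. RPL4 had 34, 56 and 10 SRSF1 reads and RPLP1 29, 17 and 19. U2AF2 fell in 23 of 30 tested, against 48.9% of all tested genes with a control-only site. It rose in 0, but in 4 with total reads as the scale. hnRNPA1 fell in 3 of 31 and rose in 0, but rose in 4 of 25 and fell in 0 under the same normalised minimum. Ribosomal protein genes have many processed copies, so their reads may be shared. Translation factors had sites in 16 of 36 genes, with U2AF2 lower in 10 of 14 and higher in 1. EIF4A2, an RNA helicase that hosts snoRNAs, went from 1728 ± 94.5 to 37.4 ± 23.7 normalised U2AF2 reads (SD, n = 3 each). The overexpression spread of EIF4A2 reaches below 17.0 normalised reads, where the shallowest control library begins to list peaks, so no test is given for it.

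Chromatin regulators had control-only sites in 23 of 44 genes. U2AF2 fell in 14 of 19, against 48.9% of all tested genes with a control-only site, and rose in 0. With total reads as the scale it fell in 9 and rose in 2. hnRNPA1 rose in 7 of 19 and fell in 1, against 12.3% and 8.51% of all tested genes with a control-only site. EP300, a histone acetyltransferase, had 21 and 10 SRSF1 reads at its site in 2 control libraries, and its hnRNPA1 reads went from 147.4 ± 3.95 to 358.4 ± 84.5 (n = 2 each, limma adjusted p = 0.0248). Cell cycle genes had sites in 12 of 49, with U2AF2 lower in 6 of 12, near the 48.9% of all tested genes with a control-only site. BUB3, a mitotic checkpoint protein, went from 981.9 ± 159 to 21.4 ± 7.38 normalised U2AF2 reads (SD, n = 3 each). The overexpression spread reaches below 17.0 normalised reads, where the shallowest control library begins to list peaks, so no test is given for BUB3.

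Nonsense-mediated decay factors had sites in 4 of 12 genes (CASC3, RNPS1, SMG9 and UPF3B). U2AF2 fell in 2 of 3 tested, against 48.9% of all tested genes with a control-only site, and in 0 with total reads as the scale. snoRNA host genes had sites in 5 of 16, GAS5 among them with 18, 15 and 11 SRSF1 reads, and U2AF2 fell in 5 of 5 tested, or in 3 with total reads. A MALAT1 site of 36 and 54 SRSF1 reads in 2 control libraries (chromosome 11, 65270754 to 65270790) had no U2AF2 peak in control cells and 452, 392 and 552 U2AF2 reads with overexpression. It was named after its values were seen. MALAT1 and NEAT1 held 13 sites; U2AF2 fell and hnRNPA1 rose in both genes, except that hnRNPA1 in MALAT1 was lower after quantile normalization.

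Zinc finger (ZNF) genes were rarer, with control-only sites in 27 of 241 (11.2%). U2AF2 rose in 5 and fell in 6 of 19, and rose in 11 and fell in 2 with total reads as the scale. ZNF875, with 16, 12 and 18 SRSF1 reads, rose from 174.3 ± 14.3 to 366.4 ± 23.2 normalised U2AF2 reads (limma adjusted p = 0.000655). Under the same normalised minimum the ZNF875 change was 0.12 on the log2 scale and did not pass (limma adjusted p = 0.665). Only 1 histone gene of 17 (H1-4) and none of 158 snoRNA and scaRNA genes had a control-only site.

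Skipped exons were compared with the sites by position alone. The authors' deposited table lists 251 skipped-exon events with a change in at least 1 pair of RNA-seq libraries. Of these events, 17 overlapped 26 control-only sites by at least 1 nt (1.29% of control-only sites, beside 1.04% of all merged sites). An event spans an exon, its introns and both flanking exons, and the table gives no strand. In the authors' deposited table inclusion was lower with overexpression in every pair with values for 11 of the 17, higher for 1 and mixed for 5. For 4 of the 11 (TOP3B, CHD1, TOM1L1 and DHX9) the authors' deposited table lacks the value of 1 library, so 2 of the 4 pairs exist. The shares over all 251 events were 47.8% lower, 24.3% higher and 27.9% mixed in the authors' deposited table. With 2 libraries per condition no test was run.

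SRSF6, an SR protein, had a control-only site of 6 and 13 reads (42088465 to 42088544) that overlapped the end of such an event (hg19 chromosome 20, 42087001 to 42088535). In the authors' deposited table its exon was included at 0.74 and 0.61 in control and 0.25 and 0.24 with overexpression, groups that do not overlap. SON, an SR-related protein of nuclear speckles, held 2 of the sites in an event that went from 0.58 and 0.23 to 0.03 and 0.06 in the authors' deposited table. TRA2A, another SR-related splicing factor, held 2 sites in an event of 0.25 and 0.46 in control and 0.12 and 0.14 with overexpression, per the authors' deposited table.

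MDM2, the ubiquitin ligase of p53, held 5 of the sites in 1 event, the strongest with 24, 7 and 23 SRSF1 reads. Inclusion in the authors' deposited table was 0.67 and 0.24 in control and 0.22 and 0.17 with overexpression. HOXB6, a homeobox gene, held 2 sites in the single event of the 17 that was higher in every pair, from 0.66 and 0.43 to 0.89 and 0.80 in the authors' deposited table. At the SRSF6 site neither U2AF2 nor hnRNPA1 had a peak in any library.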

How the data were processed

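iCLIP peaks came as deposited by the authors, per library, in hg19 coordinates. Per the file headers they were called with CLIPper on TopHat alignments, and TopHat and Bowtie2 are named without versions in the submitters' processing notes. Each deposited peak carries a read number (other unit: part of its name) and a p-value. The deposited skipped-exon table holds inclusion as a fraction, a difference as a score and a Bayes factor as a ratio, per the file headers.

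Reads at a site are those of all overlapping peaks of at least 6 reads on its strand, each peak counted whole, and 0 without a peak. Gene values sum a gene's peaks. Both were divided by median-of-ratios size factors over genes that no library lacked. log2(value + 1) was fitted in limma 3.58.1 (R 4.3.3) for features with a peak in every library, with Benjamini-Hochberg adjustment over all of them and a threshold of 0.05. The fold is on that log2 scale and is understated for low values. Shares were compared by exact permutation. The fits were tested on simulated data whose changed features lay well above the minimum of 6 reads, so changes near it were not covered. Python 3.11.15 was used, and gene IDs were matched to current symbols for 1442 of the 1501 genes.

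Named sites were the 12 with the highest median normalised SRSF1 control reads among those in all 3 control libraries and 6 among those in exactly 2 (1 per gene), the 6 genes with most sites, up to 5 sites in each direction with the greatest U2AF2 or hnRNPA1 change past the threshold, up to 3 per gene list, genes in skipped-exon events, and sites in HNRNPA1, SRSF1, U2AF2 and CEBPE. One of these sites is not reported here. The 3 weakest sites and the 3 nearest excluded ones were named too. The members and lists were chosen with earlier results of these data known. Alternatives changed the minimum reads, overlap, filter, pseudocount, scale and libraries.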

Additional observations from a re-analysis of the deposited data

How the results depend on the processing

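Depth is the main limit: U2AF2 libraries were deeper and hnRNPA1 libraries shallower with overexpression, and peaks below 6 reads are not seen. The number of control-only sites was 404 with a peak in all 3 control libraries, 694 with a p-value under 0.001, and 657 to 2569 when 1 library was left out. The U2AF2 share difference, -0.89 points, turned to 0.428 with peaks of at least 12 reads and 0.857 with all deposited peaks, and ran from -2.22 to 1.66 points when 1 library was left out; the hnRNPA1 difference ran from -31.0 to -28.2 points. The gap to overexpression-only sites changed by -6.60 to -4.89 points for U2AF2 and by 13.8 to 14.7 for hnRNPA1. Of the control-only sites, 340 were called for U2AF2 without a filter, 346 with a peak in at least 3 of 6 libraries, 4 under the same normalised minimum and 59 to 78 with 1 library left out. For hnRNPA1 these were 485, 509, 52 and 60 to 117, and 30 after quantile normalization. Genes with such a site were called for U2AF2 in 440 cases under the same normalised minimum and 652 to 848 with 1 library left out. For hnRNPA1 they were called in 367 with a peak in at least 2 of 4 libraries, 501 under the same normalised minimum and 145 to 340 with 1 left out. After quantile normalization U2AF2 reads per gene changed sign for SLIT2 (0.77), SRRM2 (0.43) and EFNA5 (0.58), hnRNPA1 reads per gene for EFNA5 (-0.72) and MALAT1 (-0.37), and hnRNPA1 at the ZNF207 site (-0.033). With total reads U2AF2 reads of SNHG7 did (0.073). Deviations of same-numbered libraries from their condition means correlated at -0.013 to 0.015. Such deviations depend on each other within a condition, so this does not settle whether a number marks a shared culture. With the replicate block, 58 and 87 control-only sites and 743 and 263 genes were called for U2AF2 and hnRNPA1, and exact p-values of the shares were 1 and 0.25 for U2AF2 and 0.5 for hnRNPA1. Named sites and genes that lost significance without changing sign numbered 7 results at sites for U2AF2 and 21 for hnRNPA1, and 27 and 24 for genes, each counted once per setting. The causes were not tested.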

Other observations

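Control-only sites were spread unevenly over chromosomes. Chromosome 21 held 62 of them (3.06%), beside 0.849% of overexpression-only, 1.54% of kept and 1.70% of all merged SRSF1 sites. U2AF1, SON, DONSON, CRYZL1 and the SUMO3 and UBE2G2 position lie there. Chromosome 2 held 78 (3.86%), beside 9.44% of overexpression-only and 7.53% of all merged sites. These shares follow from SRSF1 peaks and carry no test.

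Copies of SMG1, the kinase of nonsense-mediated decay, formed a second group with shared sequence. SMG1P1, SMG1P3, SMG1P4, SMG1P5 and SMG1P6 on chromosome 16 held control-only sites of 6 to 13 SRSF1 reads. The SMG1P6 site had 41 and 53 hnRNPA1 reads in control and 30 and 19 with overexpression. RNU6ATAC, the U6-like RNA of the minor spliceosome, had 9 and 14 SRSF1 reads in 2 control libraries, 41 hnRNPA1 reads in 1 control library and no other peak. These genes were chosen after their values were seen.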
